A study of Mus musculus with 12 samples.

Results

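The genes described here are 10 that make, bind or degrade hyaluronan, the long sugar polymer of the embryonic matrix. They are the hyaluronan synthases Has1, Has2 and Has3, the receptor Cd44, the matrix binders Vcan, Hapln1, Hapln3 and Itih5, and the hyaluronidases Hyal1 and Hyal2. They were found by symbol in the deposited tables, and 10 of 10 were present among 53392 gene identifiers. The genes were chosen by name and function with earlier estimated counts and TPM values of the same 12 libraries in view, without a cut-off, so their levels and differences are given as a description.

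Polyadenylated RNA was sequenced from the facial mesenchyme of mouse embryos on a 129S4 strain background, in 4 groups of 3 libraries. Palatal shelves, the paired outgrowths that form the secondary palate, were taken at embryonic day E13.5 from Pdgfra+/+ embryos, called wild-type here, and from PdgfraPI3K/PI3K embryos, homozygous for a knock-in allele of the receptor gene Pdgfra and called PI3K here. Maxillary processes, the earlier facial swellings from which the shelves grow, were taken at embryonic day E11.5. All maxillary embryos, controls included, were homozygous for a floxed allele of the splicing factor gene Srsf3 (Srsf3fl/fl). The controls lacked the Wnt1-Cre transgene (Wnt1-Cre+/+ in the labels), and the embryos labelled cKO carried 1 copy (Wnt1-Cre+/Tg). Wnt1-Cre recombines floxed alleles in the neural crest lineage, so other cells in the same dissection keep theirs. The ectoderm over both tissues had been digested with trypsin. The labels call the replicates biological, without saying whether a library came from 1 embryo or from a pool.

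Hyaluronan synthases sit in the plasma membrane, join uridine diphosphate sugars into the polymer and extrude it from the cell. Outside the cell, versican and link proteins build it into large hydrated complexes, heavy chains of the inter-alpha-trypsin inhibitor family bind to it, and CD44 anchors it to the cell surface. Hyaluronidases cut it into smaller pieces. In the palatal shelf a hyaluronan-rich matrix is known for swelling the mesenchyme around the time the shelves elevate.

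Positions are on mouse build GRCm38, from GENCODE M21, and every member is annotated as protein-coding. The synthase genes lie apart, Has1 (ENSMUSG00000003665.7) at chr17:17843323-17855205, Has2 (ENSMUSG00000022367.7) at chr15:56665627-56694539 and Has3 (ENSMUSG00000031910.14) at chr8:106870242-106884566. Cd44 (ENSMUSG00000005087.17) spans chr2:102811141-102901665 and Itih5 (ENSMUSG00000025780.7) chr2:10153571-10256529. Vcan (ENSMUSG00000021614.16) at chr13:89655312-89742509 and Hapln1 (ENSMUSG00000021613.9) at chr13:89539796-89611652 are neighbours 43.7 kb apart on opposite strands. Hapln3 (ENSMUSG00000030606.8) is at chr7:79115102-79131018. Hyal2 (ENSMUSG00000010047.12) at chr9:107567945-107572779 and Hyal1 (ENSMUSG00000010051.15) at chr9:107576927-107581710 stand 4.15 kb apart on the same strand.

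The 250 bases before the RefSeq start of transcription are shown for 3 members: Itih5, which alone passed the test in the maxillary comparison, Cd44, which had the next highest fitted fold change there, and Vcan, which had the highest level. Sequences are from RefSeq on build GRCm38.p6, written 5′ to 3′ on the strand of the gene, where 8 of the 10 members had an entry. Capitals mark matches, on either strand, to GGGCGG (a GC box) or CCAAT.
Itih5, plus strand, chr2:10153293-10153542: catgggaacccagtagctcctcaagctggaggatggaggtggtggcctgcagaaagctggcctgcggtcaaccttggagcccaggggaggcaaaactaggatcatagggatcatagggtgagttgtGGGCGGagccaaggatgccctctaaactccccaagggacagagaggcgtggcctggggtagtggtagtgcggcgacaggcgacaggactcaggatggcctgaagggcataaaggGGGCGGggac
Cd44, minus strand, chr2:102901666-102901915: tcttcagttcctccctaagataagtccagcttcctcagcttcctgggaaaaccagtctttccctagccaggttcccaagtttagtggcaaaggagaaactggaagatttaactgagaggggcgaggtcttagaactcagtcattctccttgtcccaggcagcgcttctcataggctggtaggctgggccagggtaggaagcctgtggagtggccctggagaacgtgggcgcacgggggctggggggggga
Vcan, minus strand, chr13:89742513-89742762: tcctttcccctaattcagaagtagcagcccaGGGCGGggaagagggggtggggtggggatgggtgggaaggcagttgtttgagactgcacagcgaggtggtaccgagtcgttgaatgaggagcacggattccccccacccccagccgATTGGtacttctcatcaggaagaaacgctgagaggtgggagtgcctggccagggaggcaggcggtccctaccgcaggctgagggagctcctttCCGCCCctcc
Counting back from the base before the start as -1, the Itih5 window held GGGCGG at -124 and at -10. Vcan held it at -219 and at -10, with a CCAAT match at -103. The Cd44 window held neither motif, and TATAAA, the third motif searched on both strands, was in none of the 3 windows. Of 32851 mouse promoters of the same length, 32.7% held GGGCGG, 33.8% CCAAT and 12.4% TATAAA. CpG dinucleotides numbered 7 in Itih5, 5 in Cd44 and 10 in Vcan, against a median of 6. These matches describe the letters of the windows only, and no binding was measured.

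Libraries held 30.5 to 37.4 M estimated counts (M, megacounts) in the palatal shelf and 15.9 to 27.9 M in the maxillary process. Counts of replicates varied beyond sampling noise (chi-square over its degrees of freedom, 11.0 to 59.9), so each of the 12 was kept as a sample. Total Srsf3 counts overlapped between the groups. The libraries labelled cKO had 468, 669 and 622 CPM (counts scaled to a common library size), and the controls had 597, 578 and 547 CPM. Only cKO library 1 was below every control. In TPM, explained below, the means were 390 ± 62.3 in the cKO libraries and 431 ± 34.4 in the controls (SD, n = 3 each), also with overlap. The gene total thus does not show the deletion, and these libraries are called cKO by their label only. The effective length of Srsf3, a measure of the transcript mix given relative to the median gene, was 0.959, 0.992 and 1.01 in the cKO libraries. It was 0.843, 0.939 and 0.934 in the controls (limma, adjusted p = 0.872). The groups did not overlap, as held for 8.70% of all genes in that direction. For Pdgfra the total was also close between the palatal groups, 491 ± 18.6 and 498 ± 57.0 CPM (SD, n = 3 each), while its effective length fell from 2.53 to 1.69 times the median gene in the PI3K libraries (limma, adjusted p = 0.0021). Facial mesenchyme markers (Prrx1, Twist1, Msx1, Pdgfra, Alx1, Alx4) were present in all 12 libraries, with summed levels of 907 to 2188 TPM. TPM, the transcript share scaled to the same total in every library, is scaled for depth and transcript length, so it can be compared between genes. Ectoderm markers (Krt5, Krt14, Krt8, Krt18, Epcam, Cdh1, Trp63) summed to 286 to 663 TPM in the palatal shelf although its ectoderm had been digested, and to 1.66 to 12.8 TPM in the maxillary process.

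**Figure D1:**
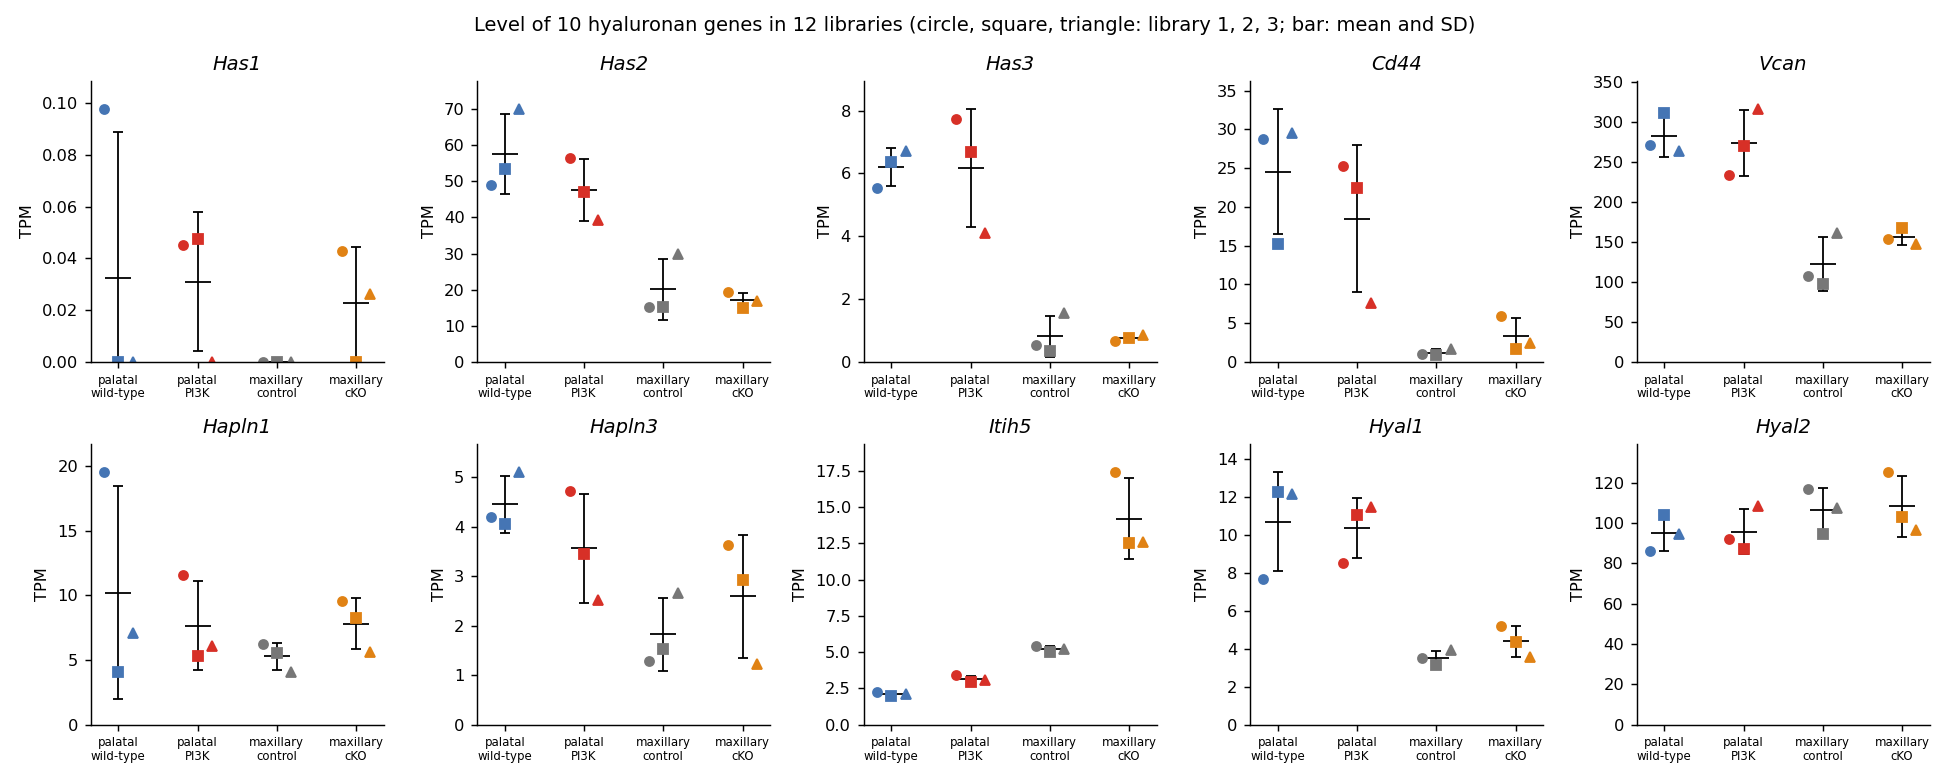
Level of each member in TPM (vertical axes, linear and each on its own scale) in the 12 libraries, with 1 point per library and the mean and SD of each group as a bar. Has2 stood at 39.3 to 70.0 TPM in the palatal shelf and at 15.0 to 29.8 TPM in the maxillary process, while Itih5 stood at 12.6 to 17.4 TPM in the cKO libraries and at 5.01 to 5.43 TPM in their controls.

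Has2 was the main synthase in every library. It held 87.5 to 91.2% of the summed TPM of the 3 synthases in the palatal shelf and 95.0 to 97.7% in the maxillary process. Has3 took nearly all of the rest, with 8.77 to 12.5% and 2.26 to 4.99%. Has1 was at the edge of detection, with 0 to 4 estimated counts in any library and at most 0.0977 TPM. It had 1 to 4 counts in 5 libraries and 0 in the other 7, and it did not pass the filter on low counts in either comparison.

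Wild-type palatal shelves had 49.0, 53.5 and 70.0 TPM of Has2, and control maxillary processes had 15.3, 15.2 and 29.8 TPM. The means differed by 2.86-fold and the groups did not overlap. Has3 had 5.52, 6.36 and 6.73 TPM against 0.548, 0.351 and 1.57 TPM, a 7.55-fold ratio. Cd44 had the highest ratio of the members, 20.8-fold, with 28.8, 15.2 and 29.6 TPM in the wild-type palatal shelf and 1.01, 0.832 and 1.71 TPM in the control maxillary process. Ectoderm markers were also higher in the palatal shelf than in the maxillary process, as given above, and their part in the levels of Cd44 and Has3 was not tested. In bulk tissue, fewer cells of a type and less RNA per cell cannot be told apart.

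Vcan was the most abundant member, with 271, 311 and 264 TPM in the wild-type palatal shelf and 108, 97.8 and 161 TPM in the control maxillary process, 2.31-fold apart. It made up 53.7 to 60.7% and 41.8 to 50.8% of the members' summed TPM. Hyal1, the lysosomal hyaluronidase, was 3.05-fold higher in the palatal shelf, with 10.7 ± 2.62 against 3.51 ± 0.388 TPM (SD, n = 3 each). Hyal2, a hyaluronidase anchored at the cell surface, had 94.8 ± 8.92 and 106 ± 11.1 TPM, and these groups overlapped. The level of Hyal2 was thus 7.79 to 11.2 times that of Hyal1 in the wild-type palatal shelf and 27.4 to 33.5 times in the control maxillary process.

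Itih5 went the other way. Wild-type palatal shelves had 2.24, 1.97 and 2.12 TPM and control maxillary processes 5.43, 5.01 and 5.19 TPM, 2.47-fold more, with no overlap. Among the link proteins, Hapln3 was 2.44-fold higher in the wild-type palatal shelf, 4.45 ± 0.577 against 1.82 ± 0.734 TPM, but all 6 palatal and all 6 maxillary libraries overlapped. Hapln1 overlapped already between the wild-type and control groups, at 4.04 to 19.6 and 4.10 to 6.20 TPM. Between wild-type palatal shelf and control maxillary process, 6 members thus stood higher in the palatal shelf without overlap and 1 stood lower, beside 36.6% and 20.1% of the 14337 genes with a mean of at least 1 TPM. Day, tissue, mouse line and sequencing lane all differ between these groups and cannot be told apart, and the values came from separate tables, so no test was made.

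By mean level in the wild-type palatal shelf the order was Vcan, Hyal2, Has2, Cd44, Hyal1, Hapln1, Has3, Hapln3, Itih5 and Has1. Hapln1, with its wide spread, overlapped there with Cd44, Hyal1, Has3 and Hapln3, and no other neighbours in the order overlapped. In the control maxillary process it was Vcan, Hyal2, Has2, Hapln1, Itih5, Hyal1, Hapln3, Cd44, Has3 and Has1. Vcan and Hyal2 overlapped, as did Hapln1 and Itih5, and Hapln3, Cd44 and Has3. Itih5 thus moved from the ninth place to the fifth. In the cKO libraries it was the fourth, at 14.2 ± 2.81 TPM (SD, n = 3), just below Has2 at 17.1 ± 2.15 TPM. Itih5 and Has2 overlapped there, at 12.6 to 17.4 and 15.0 to 19.3 TPM.

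The first comparison asked what differs when Pdgfra carries the PI3K allele. None of the members passed the test in the palatal shelf. Itih5, with a fitted level 1.49-fold higher in PI3K shelves, was the only member tested whose groups did not overlap. Has2, Cd44, Vcan, the link proteins and both hyaluronidases overlapped between the genotypes.

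The test was edgeR's quasi-likelihood test on the estimated counts, with Benjamini-Hochberg adjustment over all genes tested and a threshold of 0.05. It called 0 of the 9 members tested, and DESeq2 also called 0. At an unadjusted p under 0.05 stood 1 member, Itih5. Across all 16525 genes edgeR called 0%, and 2.14% were under that unadjusted level. Fitted differences were positive for 4 members and negative for 5, with a median log2 fold change of -0.13 beside -0.01 over all genes.

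**Figure D2:**
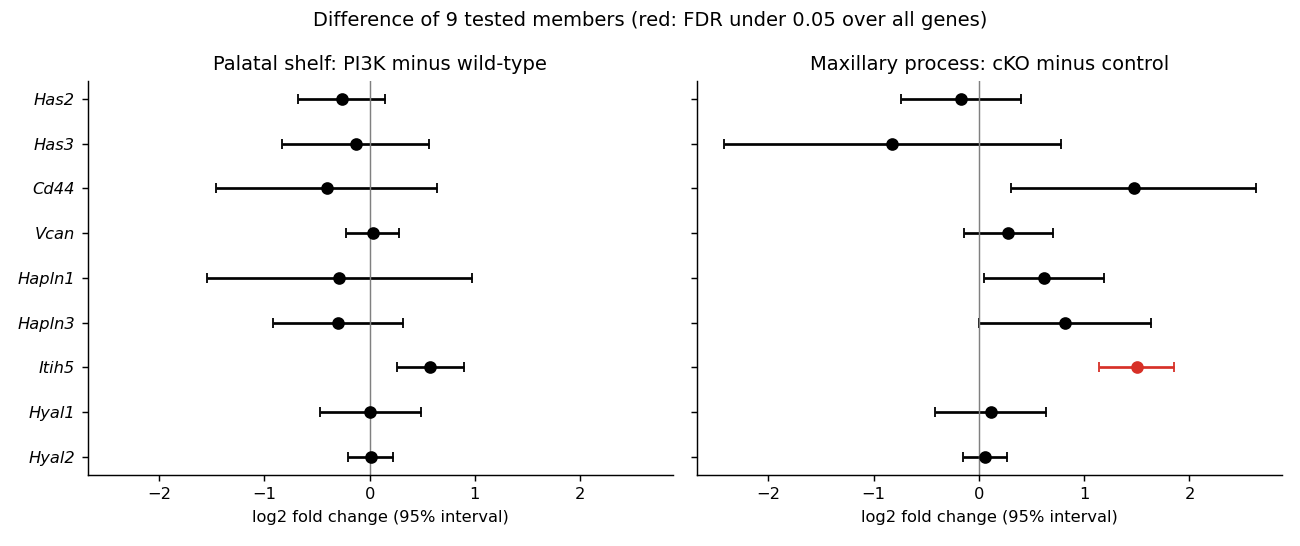
Fitted log2 fold change (horizontal axis, 0 for equal levels) of the 9 members tested, PI3K minus wild-type on the left and cKO minus control on the right, with 95% intervals as bars. The interval of Itih5 runs from 0.26 to 0.89 on the left and from 1.14 to 1.86 on the right, where it is drawn in red because it passed the adjusted threshold.

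Palatal Itih5 had 10.3, 8.91 and 9.49 CPM in wild-type and 15.6, 13.7 and 13.51 CPM in PI3K libraries. Every PI3K library was above every wild-type one, as held for 3.12% of all genes in that direction, and no member was lower without overlap, as 3.11% were. On the log2 scale the difference was 0.58 ± 0.13 (SE; 95% interval 0.26 to 0.89), and the adjusted p was 0.9997. In TPM the groups were 2.11 ± 0.137 and 3.14 ± 0.244 (SD, n = 3 each), also without overlap. Leaving out each library in turn gave 0.52 to 0.65. Periocular mesenchyme markers (Foxc1, Foxc2, Lmx1b, Eya2), a list written with earlier results of these data known, were summed. Their sums were 48.4, 43.0 and 38.4 TPM in wild-type and 51.4, 54.8 and 50.6 TPM in PI3K shelves, without overlap. Eya2 held the largest part of each sum, at 28.8, 36.0 and 31.7 against 32.7, 38.6 and 23.0 TPM. Its fitted log2 difference was -0.03. Differences were positive for 3 of the 4 genes and none separated the groups upward or downward by itself. Their part in the palatal Itih5 value was not tested.

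Has2 had 118, 127 and 165 CPM in wild-type and 136, 114 and 91.3 CPM in PI3K shelves, with PI3K library 3 lowest. Its log2 fold change was -0.27 with a 95% interval from -0.68 to 0.15, which spans ratios of 0.624 to 1.11. For Has3 the fitted value was -0.13, with 14.7, 15.9 and 17.6 CPM against 20.2, 15.5 and 8.25 CPM. Its sign rested on PI3K library 3, without which it was 0.16.

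Cd44 varied among replicates as much as between genotypes. It had 59.3, 30.3 and 57.9 CPM in wild-type and 51.7, 44.4 and 15.4 CPM in PI3K libraries, a log2 fold change of -0.41 ± 0.45 (SE). Without PI3K library 3 the value was -0.02. That library was also the lowest of the palatal shelf in all 7 ectoderm markers, for instance 28.9 TPM of the basal keratin Krt5 where the other 5 libraries had 74.7 to 142 TPM. Summed ectoderm markers were 286 TPM there and 477 to 663 TPM in the rest. The other low Cd44 value, in wild-type library 2, came with an ectoderm sum of 591 TPM. The part of ectoderm in these Cd44 and Has3 values was not tested.

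Vcan encodes versican, the large proteoglycan that link proteins fix to hyaluronan. It had 1149, 1308 and 1367 CPM in wild-type and 1156, 1365 and 1380 CPM in PI3K shelves. The log2 fold change was 0.03, and the 95% interval from -0.22 to 0.28 spans ratios of 0.858 to 1.21. Hyal2 had a similar precision, 0.01 with an interval from -0.20 to 0.22. Hyal1 was also at 0.01, with a wider interval from -0.47 to 0.48.

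Hapln1, which encodes the link protein best known from cartilage, had the widest spread. Wild-type libraries had 49.1, 13.1 and 16.3 CPM and PI3K libraries 31.7, 13.4 and 19.1 CPM. Library 1 was the highest of each group. Its log2 fold change was -0.29 ± 0.54 (SE), and without wild-type library 1 it turned to 0.55. The same 2 libraries had the most Matn1, a cartilage matrix gene, at 32.7 and 18.9 TPM against 0.0789 to 2.20 TPM in the other palatal libraries. Acan, the cartilage proteoglycan, was at 13.4 and 8.48 TPM there and at 0.523 to 3.97 TPM elsewhere. Of the other cartilage markers, Col11a2 and Comp were also highest in these 2 libraries. Sox9, Col2a1 and Col9a1 were instead highest in PI3K library 3, at 75.8, 325 and 47.4 TPM. PI3K library 1 had 42.0, 254 and 33.1 TPM of them. The 7 cartilage markers summed to 181 to 551 TPM in wild-type and 280 to 455 TPM in PI3K libraries, with none at 0 in every library of a group. The highest PI3K sum was that of library 3, and PI3K library 1 had 405 TPM. The 5 bone markers summed to 89.6 to 1354 and 97.4 to 698 TPM. The part of cartilage and bone in these Hapln1 values was not tested. Hapln3 was at -0.30 with an interval from -0.92 to 0.32.

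**Figure D3:**
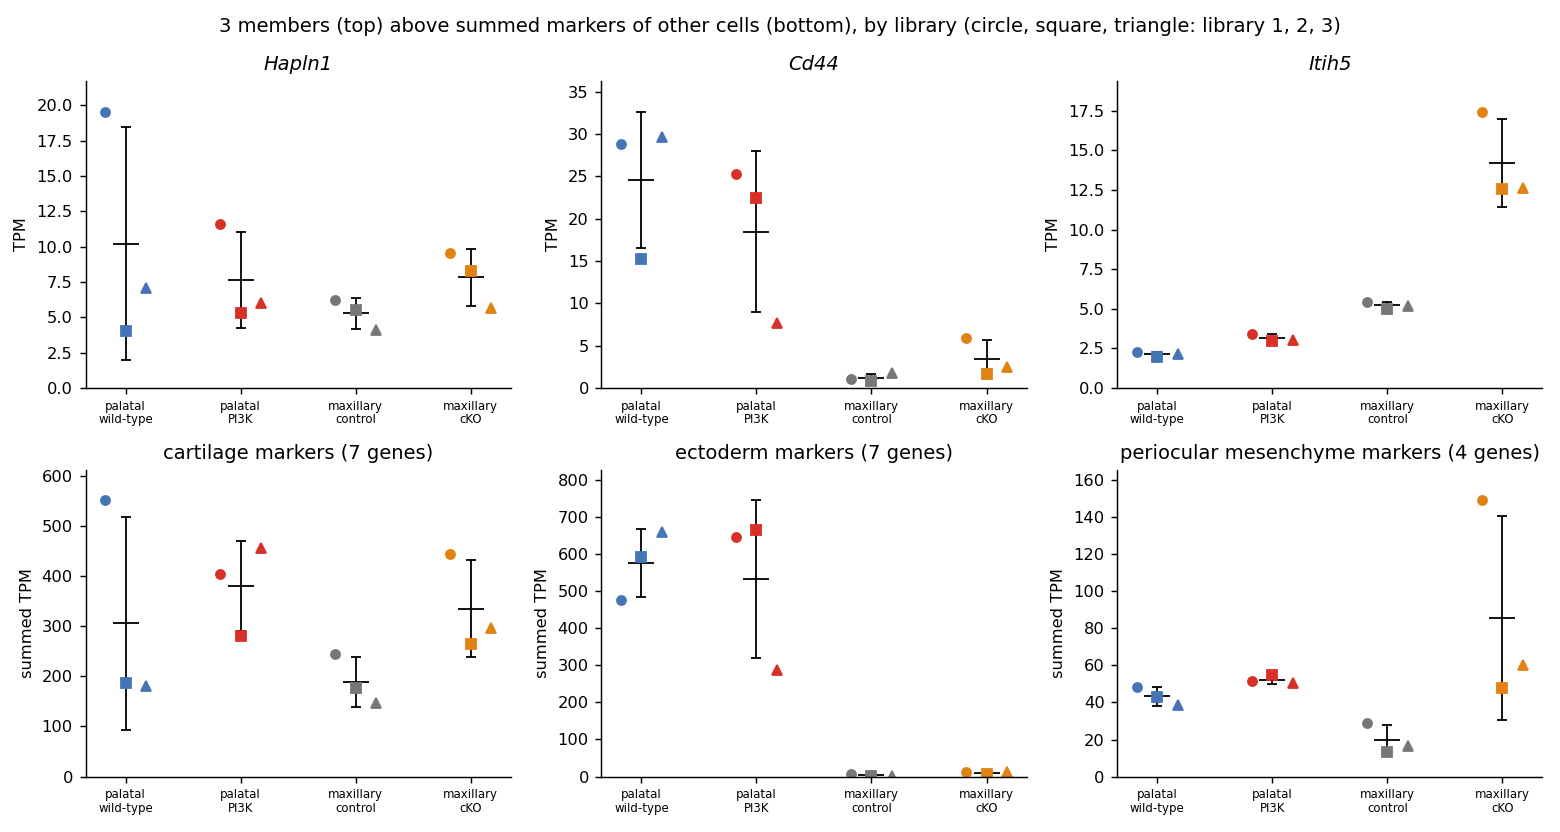
TPM of Hapln1, Cd44 and Itih5 (top) above the summed TPM of cartilage, ectoderm and periocular mesenchyme markers (bottom) in the same libraries, with mean and SD of each group. Wild-type library 1 is high in both Hapln1 (19.6 TPM) and cartilage markers (551 TPM), and PI3K library 3 is low in Cd44 (7.62 TPM) and ectoderm markers (286 TPM). Gene and markers go apart in other places. PI3K library 3 has 6.04 TPM of Hapln1 with 455 TPM of cartilage markers. Wild-type library 2 has 15.2 TPM of Cd44 with 591 TPM of ectoderm markers. Itih5 and the sum of the periocular markers, listed with earlier results of these data known, are both higher in the cKO libraries than in their controls. In cKO libraries 2 and 3, Lmx1b and Eya2 were not above all controls.

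The second comparison asked what differs in the maxillary process of embryos with Srsf3fl/fl and Wnt1-Cre. Itih5 rose 2.83-fold and was the only member past the threshold. Cd44, Hapln1 and Hapln3 had positive fitted differences between 1.54-fold and 2.77-fold that did not pass. Has2, Has3, Hyal1, Hyal2 and Vcan overlapped between the groups.

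In the same edgeR test, 1 of the 9 members tested was called, higher in the cKO libraries. Across all 14254 genes 0.0842% were called, of which 0.0561% of the genes tested were higher and 0.0281% lower. Differences were positive for 7 members and negative for 2, with a median log2 fold change of 0.28 beside 0.00 over all genes. By CPM, 3 members did not overlap, all higher (Cd44, Hapln3 and Itih5), beside 8.76% of all genes in that direction, and 0 were lower, beside 9.37%. By TPM this held for Itih5 alone.

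Itih5 belongs to the inter-alpha-trypsin inhibitor heavy chain family, secreted proteins known for stabilising hyaluronan matrix. It had 26.3, 24.3 and 23.5 CPM in the controls and 86.2, 62.2 and 61.3 CPM in the cKO libraries. The lowest of these libraries was thus well above the highest control. On the log2 scale the difference was 1.50 ± 0.15 (SE; 95% interval 1.14 to 1.86), with an adjusted p of 0.0324 (edgeR). DESeq2 gave 1.50 with an adjusted p of 2.6e-14. The call was lost, at 0.0855, 0.231 and 0.0976, without control library 1, 2 or 3, and at 0.0688 without cKO library 2, while the log2 fold change stayed between 1.32 and 1.59. With limma on log2(TPM + 1) and log2(TPM + 0.1) it was 1.28 and 1.41, with adjusted p of 0.0677 and 0.0513.

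Markers of other cells also stood at other levels in this comparison. Periocular mesenchyme markers were listed with earlier results of these data known. They summed to 28.8, 13.2 and 16.5 TPM in the controls and to 149, 48.0 and 60.2 TPM in the cKO libraries. All 4 had positive differences, and 2 of them, Foxc1 and Foxc2, did not overlap. Lmx1b and Eya2 were high in cKO library 1 only, at 6.15 and 45.2 TPM. They had 0.337 and 5.24 TPM in cKO library 2 and 0.341 and 10.2 TPM in cKO library 3. Controls had 1.01, 0.0200 and 1.50 TPM of Lmx1b and 13.2, 8.28 and 13.4 TPM of Eya2. Foxc1, a forkhead factor of the periocular mesenchyme, had 1.35 to 5.32 TPM in the controls and 20.6 to 53.9 TPM in the cKO libraries. Facial mesenchyme markers had negative differences in all 6 genes, 4 without overlap, with sums of 1777 to 2188 and 907 to 1633 TPM. Endothelial markers (Pecam1, Cdh5, Kdr, Tek, Emcn) were higher without overlap in 5 of 5, with sums of 121 to 131 and 161 to 318 TPM. No gene of these 3 lists was at 0 in all libraries of a group. The library with the most Itih5, cKO library 1, also had the highest periocular and endothelial sums and the lowest facial mesenchyme sum. Of the facial mesenchyme markers, Pdgfra was highest there, at 117 TPM against 62.7 to 113 TPM in the other maxillary libraries. Alx4, at 68.7 TPM, was above the 63.4 and 60.7 TPM of cKO libraries 2 and 3. Without cKO library 1 the log2 fold change of Itih5 was 1.32 with an adjusted p of 0.0116 (edgeR). The periocular sums of the other cKO libraries were also above those of all 3 controls, but their Lmx1b and Eya2 levels were not. In bulk tissue, more cells of a type and more RNA of its markers per cell cannot be told apart. The part of either in the Itih5 value was not tested.

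Cd44 had few counts in the maxillary process. Controls had 31, 34 and 76 estimated counts (1.93, 1.97 and 3.42 CPM), and the cKO libraries had 234, 103 and 85 (12.1, 3.76 and 4.65 CPM). The log2 fold change was 1.47 ± 0.50 (SE), with an adjusted p of 0.337 (edgeR), and DESeq2 gave 1.48 with an adjusted p of 0.0587. Library 1 stood apart, and without it the value was 0.77. That library also had the highest sum of macrophage markers (Ptprc, Csf1r, Adgre1, Cx3cr1, Cd68), 23.6 TPM where the other 5 maxillary libraries had 10.7 to 14.2 TPM. Of these markers Adgre1 was not highest there in TPM, at 2.33 against 2.64 and 2.40 TPM in cKO libraries 2 and 3. Ectoderm markers were at 1.66 to 6.29 TPM in the controls and 7.48 to 12.8 TPM in the cKO libraries. Their part in the Cd44 values was not tested.

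The link proteins gave positive values with wide errors. Hapln1 had 21.5, 19.1 and 13.3 CPM in the controls and 33.7, 29.3 and 19.5 CPM in the cKO libraries, a log2 difference of 0.62 (95% interval 0.05 to 1.19, adjusted p = 0.386, edgeR). The third cKO library lay inside the control range. Cartilage markers summed to 146 to 244 TPM and 263 to 445 TPM, and all 4 that were tested had positive differences, while Matn1 was at 0 in all 3 controls and Acan at or below 0.260 TPM in all 6 libraries. Their part in the Hapln1 values was not tested. Hapln3 had 20, 24 and 32 estimated counts in the controls and 57, 74 and 28 in the cKO libraries, a log2 difference of 0.81 (adjusted p = 0.409, edgeR). Its TPM values, 1.28, 1.53 and 2.66 against 3.64, 2.93 and 1.22, put cKO library 3 lowest of all, so the order of the libraries depended on the scale.

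The synthases gave no change that their error could separate from 0. Has2 had 38.8, 38.6 and 70.8 CPM in the controls and 49.8, 38.7 and 43.1 CPM in the cKO libraries, and its log2 fold change of -0.17 turned to 0.19 without control library 3. Has3 was near its detection limit, with 17, 11 and 69 against 11, 17 and 29 estimated counts. Its log2 fold change of -0.82 had an SE of 0.69, and limma on log2(TPM + 0.1) gave 0.12. Control library 3 was the highest of the controls for Has2, Has3, Cd44 and Vcan.

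Vcan had 608, 587 and 943 CPM in the controls and 885, 849 and 861 CPM in the cKO libraries. Its log2 fold change was 0.28 with a 95% interval from -0.15 to 0.70, and without control library 3 it was 0.54. For Hyal2 the interval was the narrowest of the members, from -0.15 to 0.26 around 0.06. Hyal1 was at 0.11 with an interval from -0.41 to 0.64. Its count is uncertain, because it shares 1920 of 3777 exonic bases (50.8%) with Naa80 on the same strand, and 50.1% of its 31-base words are also in Naa80 transcripts. It also shares 159 exonic bases (4.21%) with Hyal3 on the same strand. Naa80 itself had 15.1 ± 0.959 CPM in the controls and 11.7 ± 0.969 CPM in the cKO libraries (SD, n = 3 each). The overlaps of Has2 with Has2os (4.30% of exonic bases) and of Has3 with Chtf8 (5.52%) are on opposite strands, and whether strand was used in counting is not given in the sources used here.

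Effective length gave a second measure of the same libraries. It is a gene's estimated count divided by its TPM, which follows the length of the transcripts counted for it, and it is given relative to the median gene of each library. It moves when the mix of long and short transcripts moves, and it does not name the transcript. It was tested with limma for genes with at least 50 counts in all 6 libraries of a comparison. Among the members 0 of 9 passed in the palatal shelf and 0 of 6 in the maxillary process, beside 0.00775% and 0.00909% of all genes. At an unadjusted p under 0.05 stood 0 members in each, beside 3.89% and 5.13% of genes. In the maxillary process Has3, Cd44 and Hapln3 had too few counts.

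**Figure D4:**
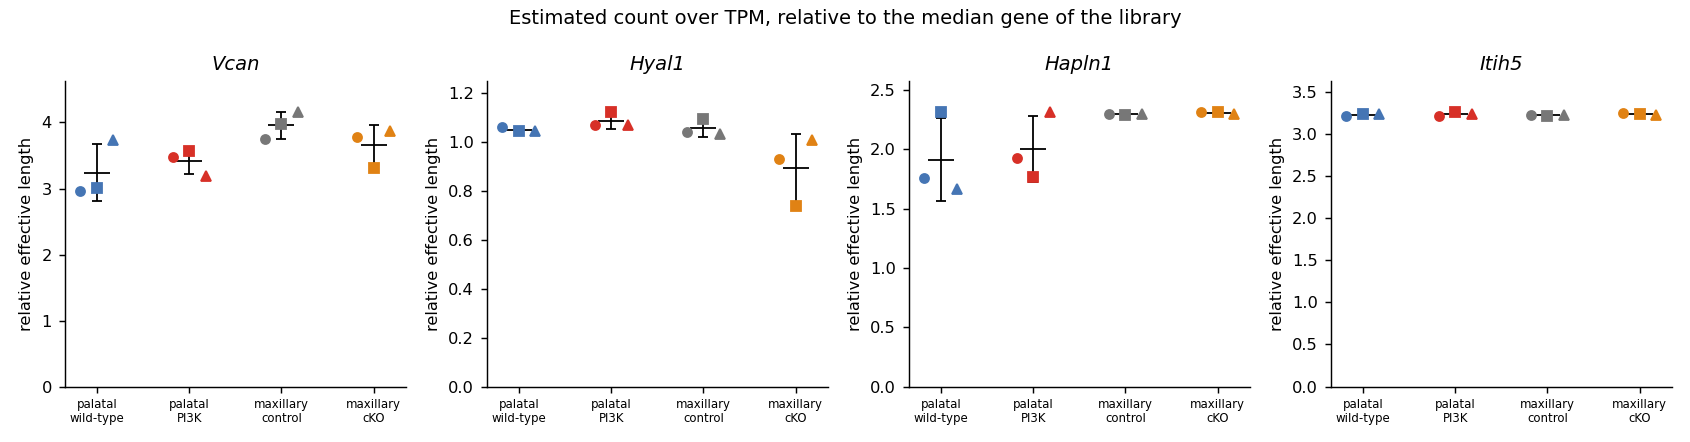
Effective length relative to the median gene (vertical axes, from 0) of 4 members in the 12 libraries, with mean and SD of each group. Itih5, with 1 annotated transcript, stays at 3.21 to 3.26 in all libraries, while Vcan ranges from 2.97 to 4.16.

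Vcan is annotated with 9 transcripts of 294 to 12427 bases, among them a retained-intron transcript of 2144 bases. Its main forms are known to differ in the exons for the glycosaminoglycan-bearing region. Its relative effective length was 2.97, 3.01 and 3.74 in wild-type and 3.48, 3.57 and 3.19 in PI3K shelves, a log2 difference of 0.08 (95% interval -0.18 to 0.35). Maxillary values were 3.75, 3.97 and 4.16 in the controls, against 3.79, 3.32 and 3.87 in the cKO libraries, a log2 difference of -0.12 (interval -0.31 to 0.08). Both pairs of groups overlapped.

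Hyal1 was the member whose lengths separated in both tissues. They were 1.06, 1.04 and 1.05 in wild-type and 1.07, 1.13 and 1.07 in PI3K shelves, beside 3.38% of genes that separated upward and 2.98% downward. Maxillary lengths were 1.04, 1.10 and 1.03 in the controls, against 0.932, 0.738 and 1.01 in the cKO libraries, beside 3.12% that separated downward. The log2 differences were 0.05 and -0.25, with adjusted p of 0.998 and 0.872 (limma). Hyal1 has 5 annotated transcripts of 843 to 3014 bases, and the overlap with Naa80 applies to this measure too.

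Hapln1 varied within the palatal groups, from 1.67 to 2.32 in wild-type and from 1.77 to 2.32 in PI3K shelves, and was even in the maxillary process, at 2.29 to 2.32. It has 2 annotated transcripts, of 464 and 5715 bases. Hapln1 and Itih5 were higher in all 3 cKO libraries than in the controls of the maxillary process, beside 8.70% of genes. Their log2 differences of 0.0075 and 0.0077 were close to the median over all genes tested, 0.0065. Cd44, with 9 annotated transcripts of 1305 to 5614 bases, was at 1.41 to 1.44 in wild-type and 1.39 to 1.48 in PI3K shelves. Has3 had 1.86, 1.79 and 1.88 in wild-type against 1.83, 1.64 and 1.47 in PI3K shelves, an overlap with a log2 difference of -0.17.

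Other genes of hyaluronan metabolism were read from a list of 46: precursor synthesis, turnover, receptors and intracellular binders, matrix binders, and proteases that cut versican. In the palatal shelf 35 of the 46 were tested, 19 with positive and 16 with negative differences and a median of 0.02. Maxillary libraries allowed 33 to be tested, 23 positive and 10 negative, with a median of 0.12. edgeR called 0 in each. At an unadjusted p under 0.05 stood 1 palatal and 10 maxillary genes, beside 2.14% and 12.2% of all genes. Without overlap stood 1 higher and 1 lower in the palatal shelf, and 7 higher and 2 lower in the maxillary process, beside 6.23% and 18.1% of all genes in either direction.

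**Figure D5:**
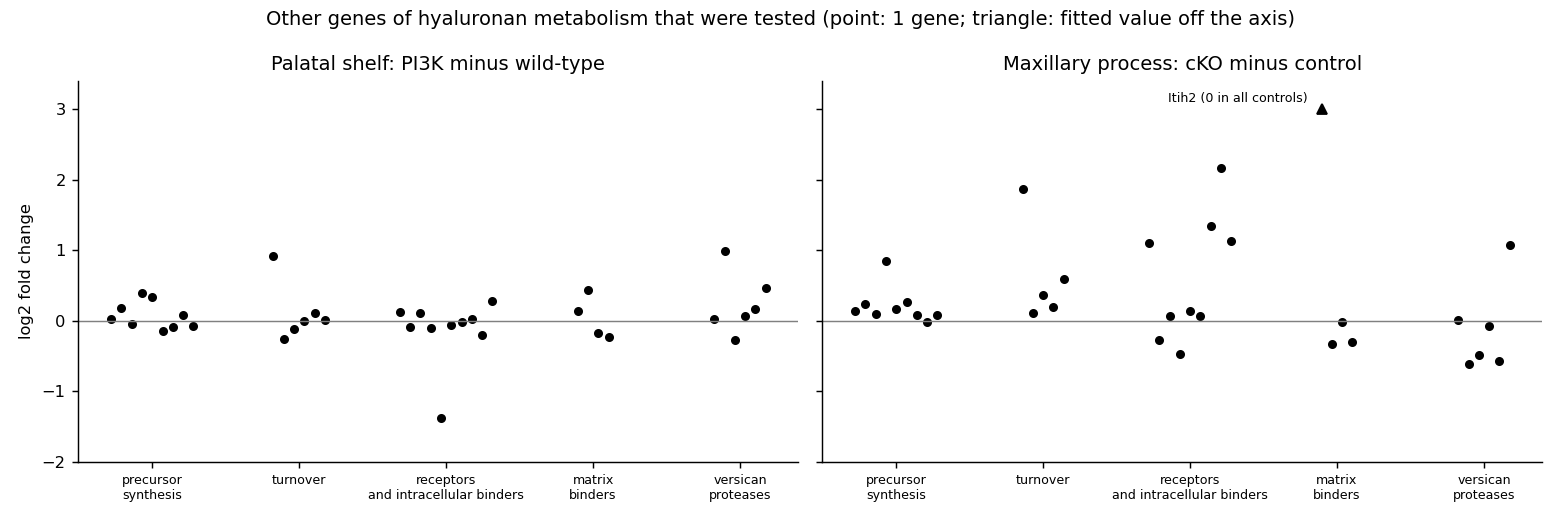
Fitted log2 fold change (vertical axis) of the other hyaluronan genes that were tested, by class, PI3K minus wild-type on the left and cKO minus control on the right, with 1 point per gene. In the palatal shelf the points run from -1.38 (Lyve1) to 1.00 (Adamts15), and in the maxillary process Itih2, with 0 counts in all controls, is drawn as a triangle because its fitted value is off the axis.

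Precursor synthesis was the class with the highest levels, led by Gpi1, the glycolytic phosphoglucose isomerase, at 255 ± 17.4 TPM in the wild-type palatal shelf. In the maxillary process 8 of its 9 genes had positive differences. Gpi1 had 292, 277 and 212 CPM in the controls and 742, 295 and 364 CPM in the cKO libraries, without overlap but with the excess mostly in cKO library 1, and a log2 fold change of 0.84 (adjusted p = 0.382, edgeR). Ugdh, which makes the glucuronic acid precursor and was chosen for mention after its values were seen, was at 0.08 in the palatal shelf and -0.02 in the maxillary process.

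For turnover, Cemip2, a hyaluronan-degrading protein of the cell surface, had the highest mean level over the 12 libraries and differences of -0.27 and 0.12. In the wild-type palatal shelf it stood at 46.5 TPM, where Hexa, a lysosomal hexosaminidase, had 47.4 TPM. Cemip, a secreted protein that promotes hyaluronan breakdown, was low in both tissues. It had 5.79, 1.15 and 1.06 CPM in wild-type and 5.57, 3.42 and 6.13 CPM in PI3K shelves, and 0.312, 0.174 and 0.631 CPM in the controls and 2.94, 0.913 and 0.383 CPM in the cKO libraries. Both pairs of groups overlapped.

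Among the receptors, Lyve1, a hyaluronan receptor of lymphatic endothelium, had 12.8, 1.24 and 4.79 CPM in wild-type and 5.38, 1.15 and 0.714 CPM in PI3K shelves, an overlap. Stab2, a scavenger receptor that clears hyaluronan, had 0.624, 0.521 and 0.585 CPM in the controls and 5.58, 0.949 and 1.31 CPM in the cKO libraries. Its groups did not overlap, its log2 fold change was 2.16 (adjusted p = 0.333, edgeR), and cKO library 1, which held the most endothelial markers, was again the highest. Rdx, a linker of membrane receptors to actin, had the highest level of the class and differences of -0.02 and 0.06. Ezr, its relative that binds the tail of CD44, was chosen for mention after its values were seen: it had 13.7, 11.4 and 8.02 CPM in the controls and 27.7, 19.1 and 23.9 CPM in the cKO libraries, a log2 difference of 1.10 (adjusted p = 0.167, edgeR).

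Among the matrix binders, Tnfaip6, the enzyme that transfers heavy chains of the inter-alpha-trypsin inhibitor family onto hyaluronan, had the highest mean level over the 12 libraries, although Ptx3, which helps to assemble that matrix, was higher in the wild-type palatal shelf at 21.9 against 20.3 TPM. Tnfaip6 was lower without overlap in both comparisons: 18.1, 19.3 and 17.1 against 16.3, 15.7 and 14.5 CPM in the palatal shelf, and 32.6, 33.0 and 30.0 against 26.0, 29.3 and 22.1 CPM in the maxillary process. The log2 fold changes were -0.23 and -0.30, with adjusted p of 0.9997 and 0.406 (edgeR). Itih2, a heavy chain gene related to Itih5, had 0, 0 and 0 counts in the controls and 17, 16 and 17 in the cKO libraries. Taking 3 counts over the control group as the floor, it was at least 13.9-fold higher, at an adjusted p of 0.118 (edgeR), and its level there was 0.433 TPM against 14.2 TPM for Itih5.

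Of the versican proteases, Adamts15 had the highest fitted difference of the list in the palatal shelf, with 38.0, 31.6 and 24.9 CPM in wild-type and 44.8, 79.9 and 63.8 CPM in PI3K shelves. The groups did not overlap, and the log2 fold change was 1.00 ± 0.24 (SE), with an adjusted p of 0.9997 (edgeR). In the maxillary process it was at -0.62, with groups that overlapped. Adamts1 had the highest level of the class and differences of 0.02 and 0.01.

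Genes with profiles most like a member were sought over the 12 libraries among 11434 genes, by the Euclidean distance between log2(CPM + 1) values centred on each gene's mean. Has2 lay nearest to B4galnt1 (0.59), Chst15 (0.61) and Agrn (0.62). Itih5 lay nearest to Rragd (0.82), which had 2.97 and 5.56 TPM in the wild-type and PI3K palatal shelf and 9.76 and 23.7 TPM in the control and cKO maxillary process, an order of groups like that of Itih5. Abcd2 (1.32) and Bend4 (1.39) were farther. Hapln1 lay nearest to Spns2 (0.89), Rasgrp2 (1.11) and Tubb6 (1.13). The difference between the tissues enters all of these distances, and they are given as descriptions.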

How the data were processed

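RNA-seq of 12 libraries was deposited as 2 kinds of table. The authors' deposited estimated counts and TPM values per gene hold 53392 versioned Ensembl identifiers, of which 53355 matched GENCODE M21 (GRCm38) without the version. The submitters' processing notes name STAR 2.7.0, Salmon 1.1.0, DESeq2 1.28.1 and build mm10, while the transcript index, strand setting and any trimming are not given in the sources used here. Estimated counts were rounded and tested in R 4.3.3 with edgeR 4.0.16 (TMM, default low-count filter, quasi-likelihood F-test, Benjamini-Hochberg adjustment over all genes), each comparison on its own 6 libraries with genotype as the only term. CPM values are normalised for library total and TMM factor. Standard errors derive from the F statistic. Effective length (count over TPM, log2, centred on the median gene) was tested with limma 3.58.1. Both tests were tried on simulated data with 200 changed genes. The members, the gene lists and the periocular markers were chosen with earlier results of these data known. A gene of the periocular list is not reported here and is left out of its sums. All 10 members are described. Other pathway genes are named when called, among the 3 with the largest absolute fold change in a comparison, or highest in mean level in their class, with Ezr and Ugdh added. Alternatives were other normalisations, filters, pseudocounts and tools, the replicate number as a block, and each library left out. Deviations of same-numbered libraries correlated at 0.53, 0.22 and -0.22 in the palatal shelf and 0.080, 0.11 and 0.23 in the maxillary process. Not every pair was over the 0.1 required, so the numbers were not taken to pair samples. Nothing says which libraries share a litter, so p-values measure the spread between these libraries.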

Additional observations from a re-analysis of the deposited data

How the results depend on the processing

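In the palatal shelf 0 members were called under every alternative run, and the 0 genes called by edgeR became 4 with DESeq2. In the maxillary process the 12 genes called became 143 with no filter on low counts, 40 with the replicate block, 105 with all 12 libraries in one fit and 382 with DESeq2, and 2 to 29 on leaving out each library. The lowest of these was without control library 2 and the highest without cKO library 1. The 1 member called, Itih5, was not called with limma on log2(TPM + 1) or log2(TPM + 0.1) (0 members each), and leaving out each library gave 0 to 1. Genes called by effective length were 1 in each tissue. They became 28 and 3 with no centring, which leaves the difference in library totals in the values, 0 and 0 with the replicate block, 2 with a count minimum of 20 in the maxillary process, and 0 to 1 and 0 to 5 on leaving out each library. The replicate block changed no other call of a member. The cause of these shifts was not tested.

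None of the values whose sign turned had passed the test. In the palatal shelf the log2 fold change of Hyal1 was -0.000265 with no filter and -0.0275 and -0.0280 with limma on log2(TPM + 1) and log2(TPM + 0.1), where Vcan had -0.0527 and -0.0529. Leaving out each library gave -0.0271 to 0.12 for Vcan, -0.67 to 0.55 for Hapln1, -0.16 to 0.14 for Hyal1, -0.0297 to 0.0753 for Hyal2 and -0.42 to 0.16 for Has3. In the maxillary process Has3 was 0.00253 and 0.12 with the same limma fits, and leaving out each library gave -0.32 to 0.19 for Has2, -1.43 to 0.12 for Has3 and -0.0780 to 0.23 for Hyal1. For effective length with no centring, Has2, Cd44 and Itih5 were at -0.00587, -0.000589 and -0.00539 in the palatal shelf, and Vcan, Hyal1 and Hyal2 at 0.15, 0.00860 and 0.25 in the maxillary process. Without centring the median of all genes shifted by -0.00725 and 0.27. Leaving out each library gave palatal lengths of -0.0208 to 0.0260 for Hyal2, -0.0348 to 0.22 for Hapln1, -0.15 to 0.19 for Hapln3, -0.000402 to 0.0111 for Has2 and -0.0106 to 0.0322 for Cd44, and maxillary lengths of -0.0504 to 0.0749 for Hyal2. Between tissues, CPM in place of TPM moved the log2 ratio of Vcan from 1.21 to 0.75 and that of Itih5 from -1.30 to -1.46, with no change of direction. Counts of 11 to 76 in the maxillary controls limit the precision of Has3, Cd44 and Hapln3, whose TPM was also lower there than in the palatal shelf.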
